A study of Gossypium hirsutum with 6 samples.

Results

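MYB1, GHMYB36, GHDEL61 and HOX3 are 4 transcription factor genes of upland cotton (Gossypium hirsutum) from the MYB, basic helix-loop-helix (bHLH) and homeobox families. They were taken from the 246 genes on the array that carry an older gene name, as the genes whose synonyms in the RefSeq gene table include 1 of these 4 names and whose probe set is paired with no other gene. Each was read by 1 probe set, so no member has a second measurement of its own. Among probe sets paired with a single gene, none of the 4 shares its sequence cluster on the array with another gene. As 23286 of the 24029 tested probe sets have no gene, this says little about which transcripts a probe set reads. MYB1 (LOC107895098), GHMYB36 (LOC107941297) and HOX3 (LOC107904747) have probe sets with the plain suffix. The probe set of GHDEL61 (LOC107904486) carries the Affymetrix suffix for probes shared with other transcripts, so related bHLH transcripts may add to its signal. The 4 genes were chosen by their measured drought differences on these arrays, which are therefore given as a description, without a test.

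Leaf RNA of the cultivar Bikaneri Nerma was hybridised to 6 Affymetrix cotton arrays. The 3 drought samples came from field plots where irrigation was stopped at peak flowering, with a rain-out shelter over the plots when it rained. They were taken after 18 to 19 days, at a soil moisture of 19.5%, which was 50% of that in the control plots. The 3 control samples came from plots of the same field and cultivar that kept normal soil moisture. Both arms had 6 plots. The samples of an arm are labelled as biological replicates, and the plot behind each one is not named.

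In plants, MYB and bHLH proteins bind each other and a WD40 repeat protein, and these complexes switch on genes for leaf hairs and for anthocyanin pigments. Homeodomain-leucine zipper proteins of the class that includes GLABRA2 of Arabidopsis act in the same epidermal programme. A cotton fibre is a single elongated cell of the seed epidermis, and HOX3 is known as a homeodomain-leucine zipper gene that promotes fibre elongation in cotton. GHDEL61 is a bHLH gene named after DELILA, an anthocyanin regulator of snapdragon; it is also listed as bHLH110D. GHMYB36 and MYB1 encode MYB proteins, and GHMYB36 is also listed as myb120a, myb120b and myb124. The arrays measured whole leaf RNA, so epidermal and other leaf cells cannot be told apart, nor can fewer cells of a type and less RNA per cell.

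The deposited values are on a log2 scale and were centred so that each probe set has a median of 0 over the 6 arrays. They show how far an array lies above or below the middle of the arrays for that gene. They hold no absolute level, and the levels of different genes cannot be compared. Because of the centring, the drought and the control array nearest to each other are mirror images around 0 in any gene whose groups do not overlap. Array medians over the 24029 tested probe sets ran from 0.0294 to 0.0817 in drought arrays and from -0.0472 to -0.0367 in control arrays. The array median of the hybridisation spike-ins, bacterial and phage transcripts added in fixed amount, averaged 0.151 in drought and -0.096 in control arrays, a difference of 0.247. The polyA spike-ins differed in the same direction, by 0.224, and the reporter control probe sets by 0.056. The cause of these offsets was not tested. Results with arrays centred on the hybridisation spike-in median are given below.

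GHDEL61, GHMYB36 and HOX3 were lower and MYB1 was higher in drought leaves, and in none of the 4 genes did the arrays of the groups overlap. The largest of the 4 differences was that of GHDEL61, at -5.19 log2 units, followed by GHMYB36, at -4.07. Those of MYB1 (1.97) and HOX3 (-1.82) were close in size, and their order turned when arrays were centred on their median (1.87 and -1.92) or on their spike-in median (1.72 and -2.07). Over all tested probe sets, the 3 drought arrays were all above the 3 control arrays for 40.1% and all below them for 22.7%, so separated groups were common on these arrays.

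Of the MYB and bHLH genes, GHDEL61 had centred log2 values of -2.41, -2.47 and -3.35 in drought replicates 1, 2 and 3, against 2.48, 2.41 and 2.48 in control replicates 1, 2 and 3. Drought replicate 3 lay 0.87 below the next lowest drought array, while the control arrays lay within 0.07 of each other. The means were -2.74 ± 0.52 in drought and 2.45 ± 0.04 in control (SD, n = 3 each). The difference of -5.19 (SE 0.22) stands for a 36.6-fold lower signal. Without drought replicate 3 the difference was -4.89, or 29.7-fold lower. The within-group SD of 0.372, pooled over both groups, was at the 99.7th percentile of all tested probe sets, whose median was 0.111.

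GHMYB36 had values of -1.85, -2.37 and -1.94 in the drought replicates, against 2.05, 2.15 and 1.85 in the control replicates. Drought replicate 2 was the lowest array, 0.43 below the next, and the groups were separated by 3.69. Its means were -2.05 ± 0.28 in drought and 2.02 ± 0.16 in control (SD, n = 3 each). The difference was -4.07 (SE 0.14), a 16.7-fold lower signal in drought leaves. Its pooled within-group SD of 0.227 was at the 92.3rd percentile.

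MYB1 was the member with the opposite direction. Its values were 1.00, 0.91 and 0.90 in the drought replicates, against -1.06, -0.90 and -1.13 in the control replicates. All drought arrays lay within 0.10 of each other and 1.80 above the highest control array. The means were 0.94 ± 0.06 in drought and -1.03 ± 0.12 in control (SD, n = 3 each). The difference of 1.97 (SE 0.08) stands for a 3.91-fold higher signal in drought leaves. Its pooled within-group SD of 0.0938 was below the median of the tested probe sets.

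HOX3, the homeobox gene, had values of -0.79, -1.01 and -0.87 in the drought replicates, against 0.79, 0.88 and 1.11 in the control replicates. The groups were separated by 1.59, and the drought arrays spanned 0.22 and the control arrays 0.31. The means were -0.89 ± 0.11 in drought and 0.93 ± 0.16 in control (SD, n = 3 each). The difference of -1.82 (SE 0.10) stands for a 3.53-fold lower signal in drought leaves.

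**Figure D1:**
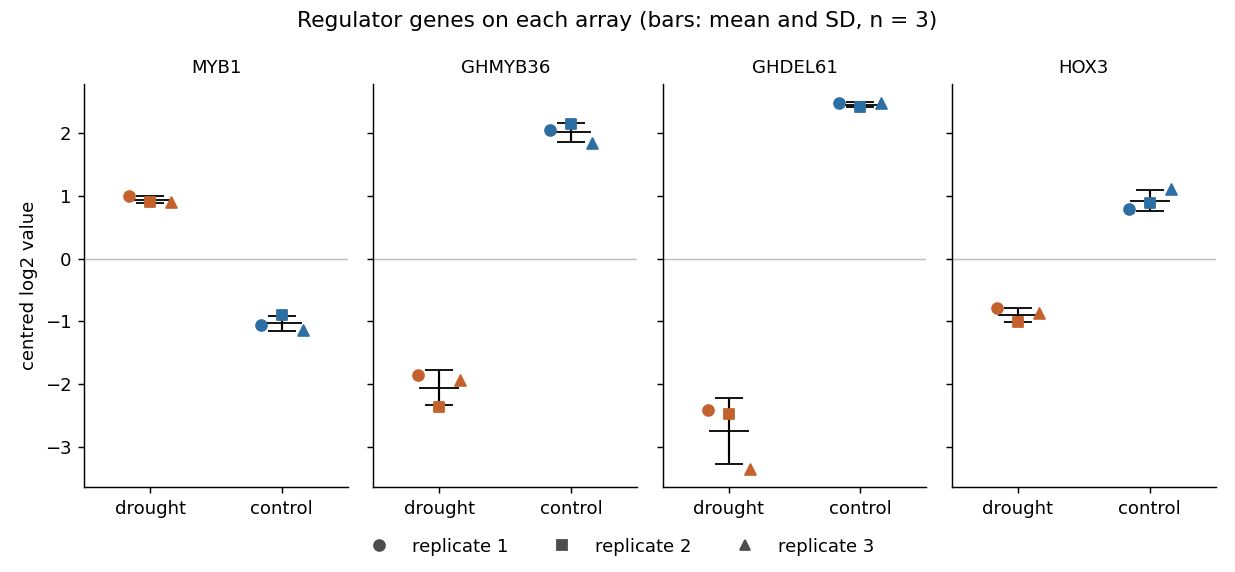
Centred log2 value (vertical axis, 0 is the median of the 6 arrays) of MYB1, GHMYB36, GHDEL61 and HOX3 on each array, with drought arrays left of control arrays; symbols give the replicate, bars the mean and SD of 3 arrays. MYB1 lies above 0 in all drought arrays and the other genes below 0, with GHDEL61 in drought replicate 3 lowest of all, at -3.35.

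The order of the 3 decreases did not depend on which arrays were set against each other. Over the 9 pairs of a drought and a control array, the difference ran from -5.82 to -4.82 for GHDEL61, from -4.52 to -3.69 for GHMYB36 and from -2.12 to -1.59 for HOX3, so these ranges did not overlap. For MYB1 it ran from 1.80 to 2.13, which overlaps in size with the range of HOX3. In the drought group, replicate 1 was highest for all 4 genes, and its median over all tested probe sets (0.0817) was also the highest of the drought arrays. Replicate 2 was lowest for GHMYB36 and HOX3, and replicate 3 for GHDEL61 and MYB1. In the control group, replicate 3 was lowest for MYB1 and GHMYB36, replicate 2 for GHDEL61 and replicate 1 for HOX3.

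Against the rest of the array, a decrease as large as that of GHDEL61 was found for 96 tested probe sets (0.4%), GHDEL61 included, and one as large as that of GHMYB36 for 251 (1.04%). For HOX3 the number was 1194 (4.97%). An increase as large as that of MYB1 was found for 406 (1.69%). Among the 246 genes with an older name, with 1 probe set each, GHDEL61 ranked 3, GHMYB36 ranked 14 and HOX3 ranked 40 by size of decrease, and MYB1 ranked 10 by size of increase. The median difference was 0.12 over all tested probe sets and -0.11 over the named genes, both small beside the 4 differences.

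**Figure D2:**
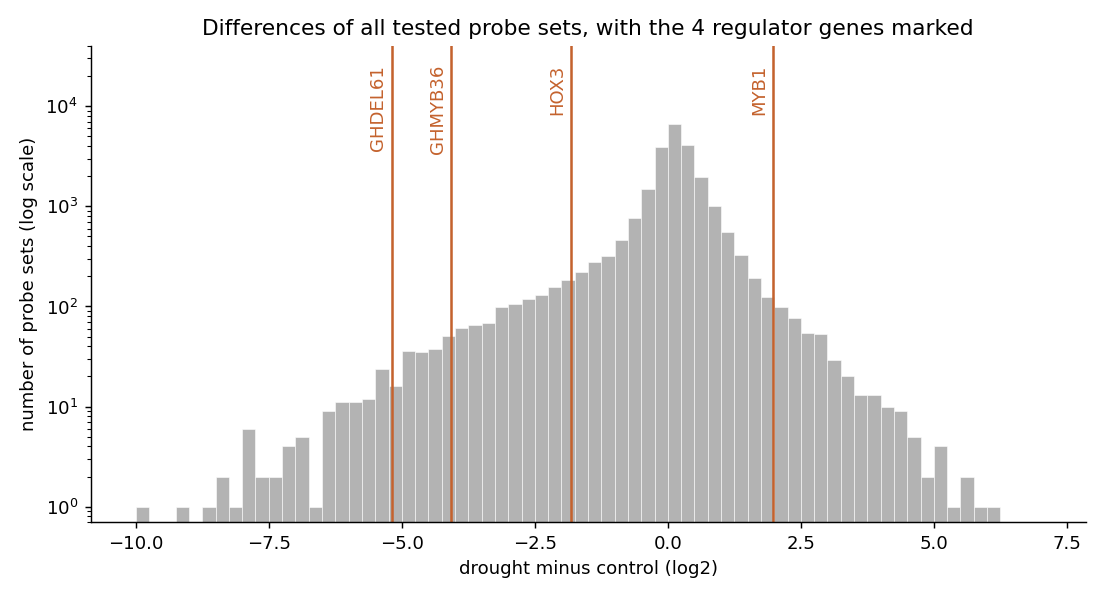
Number of tested probe sets (vertical log axis) by log2 difference, drought minus control (horizontal axis, bins of 0.25), with lines at the differences of the 4 regulator genes. GHDEL61 at -5.19 and GHMYB36 at -4.07 lie in the lower tail, HOX3 at -1.82 and MYB1 at 1.97 nearer the centre.

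The signs of all 4 differences were the same under every normalization tried. Centring takes 1 value per array off all genes, a shift too small to turn differences of this size, so this outcome was fixed for those settings. Quantile normalization changed the sizes of the differences. The difference became 2.68 for MYB1, -3.23 for GHMYB36 and -4.19 for GHDEL61, which moved their fold differences by 1.64, 1.79 and 2.01 times. Quantile normalization gives all arrays the same distribution of values. Whether this accounts for the changed sizes was not tested. When each array was instead centred on its spike-in median, the differences were 1.72 for MYB1, -2.07 for HOX3, -4.31 for GHMYB36 and -5.44 for GHDEL61.

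**Figure D3:**
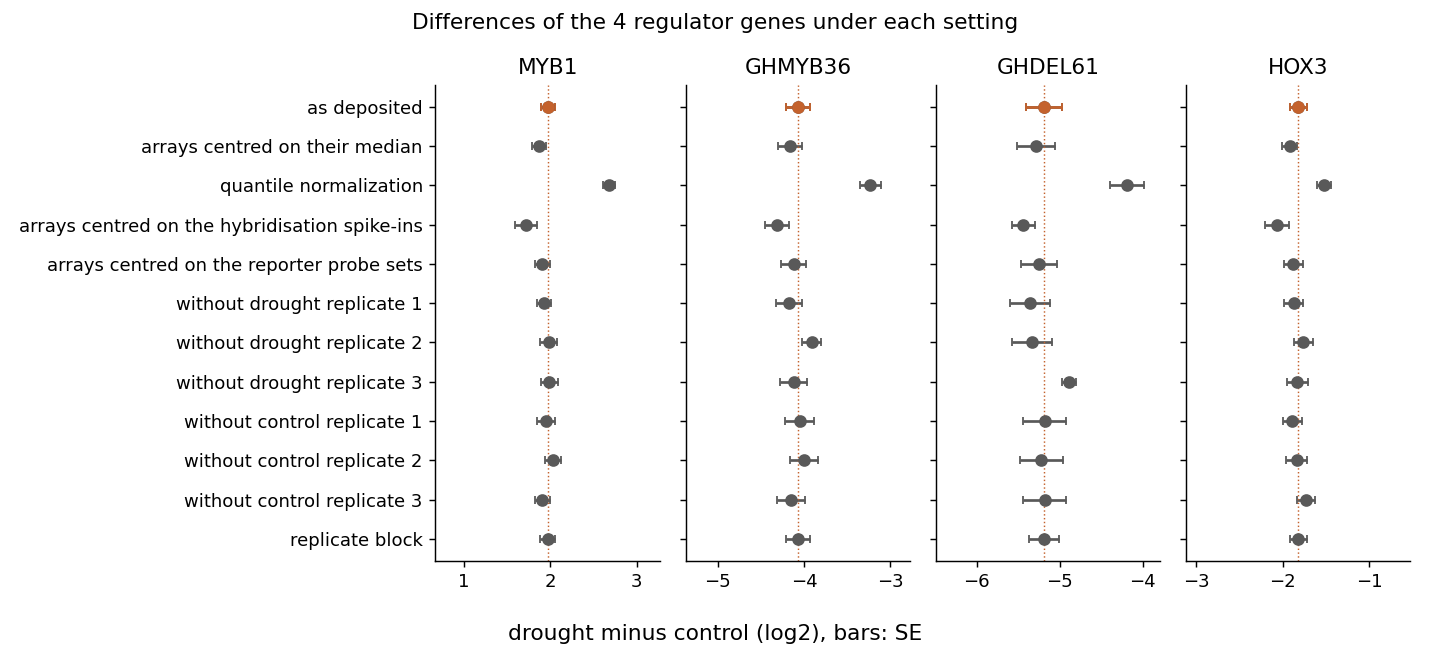
Log2 difference, drought minus control, with its SE (horizontal axis, a separate range for each gene) under each setting (vertical axis); the dotted line marks the value as deposited. No setting turns a direction, and quantile normalization moves all 4 genes most, MYB1 to 2.68 and GHDEL61 to -4.19.

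The other regulators of these families were split, and those that passed went both ways. A list of MYB, bHLH, WD40, homeobox and TCP names matched 7 other genes, 5 of them MYB genes, 1 WD40 gene and 1 homeobox gene. Of these 7 genes, 2 were higher, 2 were lower and 3 did not pass an adjusted p of 0.05 in limma, with a median difference of -0.03. Over all tested probe sets 55.7% passed, 35.3% as higher and 20.4% as lower, so 4 of 7 is near the share of the whole array. With spike-in centring the balance over all tested probe sets turned, with 3989 higher and 7255 lower, against 8485 higher and 4895 lower as deposited. GHDEL61 was the only bHLH gene that the patterns found.

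MYB5/MYB6 (LOC107912705), a MYB gene listed under both names, moved in the same direction as MYB1. It had 0.80, 0.61 and 0.54 in the drought replicates, against -0.73, -0.54 and -0.86 in the control replicates, and rose by 1.36 (SE 0.11, limma adjusted p = 7.53e-06). Its drought arrays all lay above its control arrays. The gene listed as MYB5 alone (LOC107912305) gave -0.03 (SE 0.10, limma adjusted p = 0.798), with overlapping groups.

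GHMYB38 moved in the same direction as GHMYB36. It had -0.53, -0.48 and -0.43 in the drought replicates, against 0.78, 0.58 and 0.43 in the control replicates, and fell by 1.07 on the log2 scale (SE 0.10, limma adjusted p = 2.14e-05). Its other probe set also fell, by 1.41 (SE 0.12, limma adjusted p = 1.22e-05), so both probe sets had the same direction, but this one lies in a sequence cluster paired with 2 genes and is not shown to measure GHMYB38 alone. GHMYB10 fell by 0.38 (SE 0.07, limma adjusted p = 0.00246), with drought arrays between -0.20 and -0.12 and control arrays between 0.12 and 0.30.

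The MYB gene myb109, a cotton gene known from fibre development, gave -0.10 (SE 0.10, limma adjusted p = 0.417) with overlapping groups. When each array was centred on its spike-in median it passed, at -0.34 (limma adjusted p = 0.0303). GHTTG1, a cotton counterpart of the Arabidopsis WD40 gene of the leaf hair complex, gave 0.02 (SE 0.08, limma adjusted p = 0.806). Its values were 0.07, -0.08 and 0.00 in the drought replicates, against 0.00, 0.02 and -0.12 in the control replicates. HB4, a homeobox gene, was opposite in direction to HOX3 and rose by 0.75 (SE 0.07, limma adjusted p = 3.64e-05). A gene listed only as MYB (LOC107909337) gave 1.46 (SE 0.10). It lies outside the name patterns and was singled out after its values were seen, so its difference is a description without a test.

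**Figure D4:**
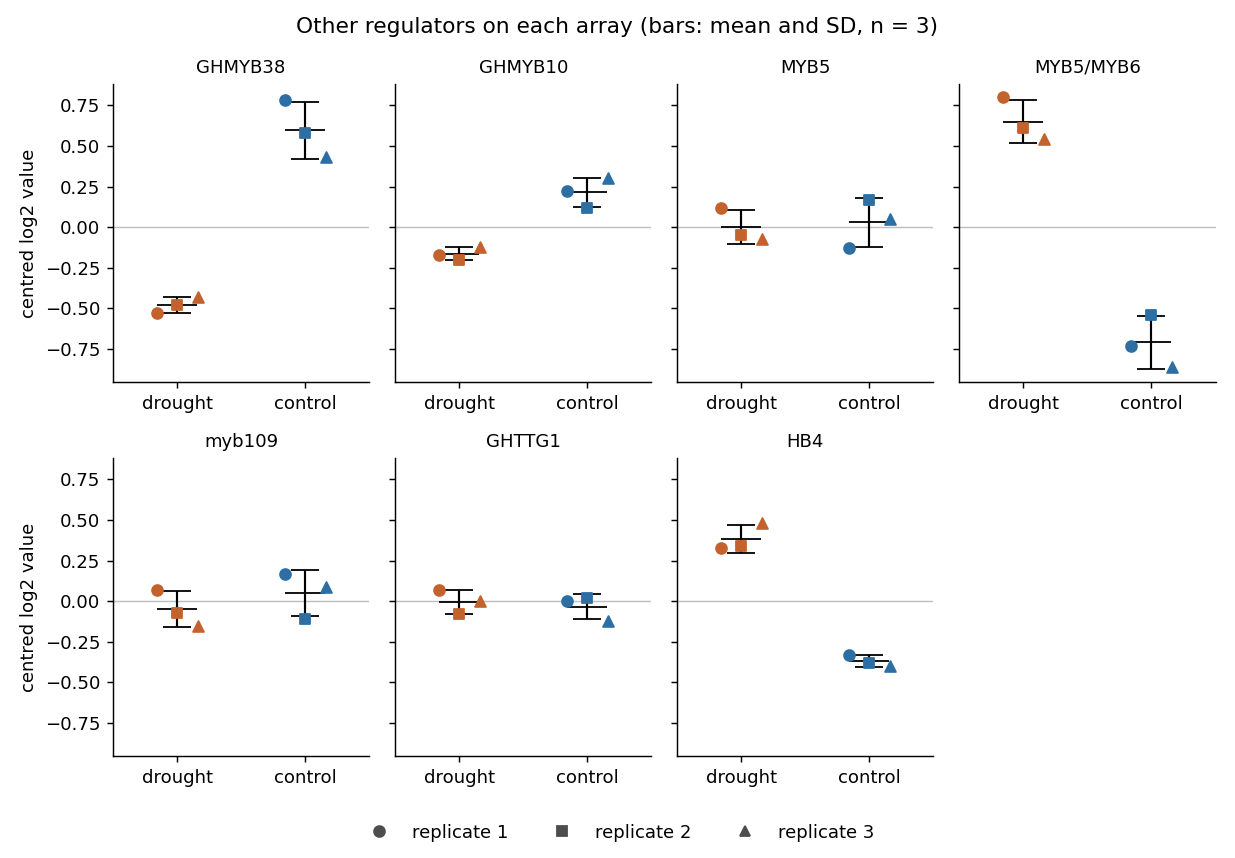
Centred log2 value (vertical axis, 0 is the median of the 6 arrays) of the 7 other regulators on each array, with drought arrays left of control arrays; symbols give the replicate, bars the mean and SD of 3 arrays. MYB5/MYB6 and HB4 are higher and GHMYB38 and GHMYB10 lower in drought, while the groups overlap for MYB5, myb109 and GHTTG1.

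Enzymes of the flavonoid and phenylpropanoid pathways moved in the same direction as GHDEL61, GHMYB36 and HOX3, opposite to MYB1. Whether any of the members has a part in the decreases of these enzymes was not tested. All 5 matched genes fell, with a median of -1.25 and a range from -3.90 to -0.41, where 20.4% of all tested probe sets were called lower. The list was set with earlier results of these data known, so this count is a description. The largest decreases were those of DFR, dihydroflavonol reductase, at -3.90 (SE 0.12, limma adjusted p = 2.36e-08), and CHS3, a chalcone synthase, at -3.46 (SE 0.10, limma adjusted p = 1.29e-08). CHS2 gave -1.25 on the probe set used, and its other probe sets gave -0.69, -0.09 and 0.06, of which the last pair did not pass. CHS6, at -0.41 (limma adjusted p = 0.0191), did not pass when drought replicate 1 (-0.36), drought replicate 3 (-0.39), control replicate 2 (-0.31) or control replicate 3 (-0.39) was left out, with limma adjusted p-values from 0.0508 to 0.0733.

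Genes known from cotton fibre were also lower in drought leaves. The median of 8 fibre markers was -3.92. All but Fb2, which rose by 0.47, fell, so 7 were lower and 1 higher, where 20.4% of all tested probe sets were called lower and 35.3% higher. With spike-in centring Fb2 gave 0.22 and did not pass (limma adjusted p = 0.179). Their summed centred values ran from -13.16 to -12.02 in drought arrays and from 12.19 to 12.54 in control arrays. The largest decreases were those of susC, a sucrose synthase, at -4.84 (SE 0.07, limma adjusted p = 6.77e-10), and H6L, a fibre transcript, at -4.75 (SE 0.11, limma adjusted p = 4.54e-09). The probe set of susC shares its sequence cluster on the array with that of EXPA1, so its value is not shown to be of 1 gene. LTP3, a lipid transfer protein gene, counts as lower from a probe set (-0.65) whose sequence cluster is paired with 3 genes, and its other probe set gave -0.20 and did not pass (limma adjusted p = 0.067). CelA1 counts as lower from a probe set at -3.97, while its other one gave 0.26 and did not pass (limma adjusted p = 0.0627), both of antisense design. Of 5 flower markers 2 fell, MADS-1 at -4.21 (SE 0.14, limma adjusted p = 3.03e-08) and SEPALLATA3 at -1.56 (SE 0.13, limma adjusted p = 1.22e-05), and 3 did not pass, with values from -0.03 to 0.15 and a list median of -0.03. Summed flower values ran from -3.44 to -2.40 in drought and from 2.34 to 3.40 in control arrays. The 1 leaf marker, the Rubisco activase gene RCA1, rose by 0.60 (SE 0.07, limma adjusted p = 8.33e-05). As the values are centred, it cannot be read whether any marker was at background in either group, so the leaf label was not checked by level. The marker lists were set with earlier results of these data known, so their counts are a description. Whether these markers have a part in the decreases of GHDEL61, GHMYB36 and HOX3 was not tested.

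**Figure D5:**
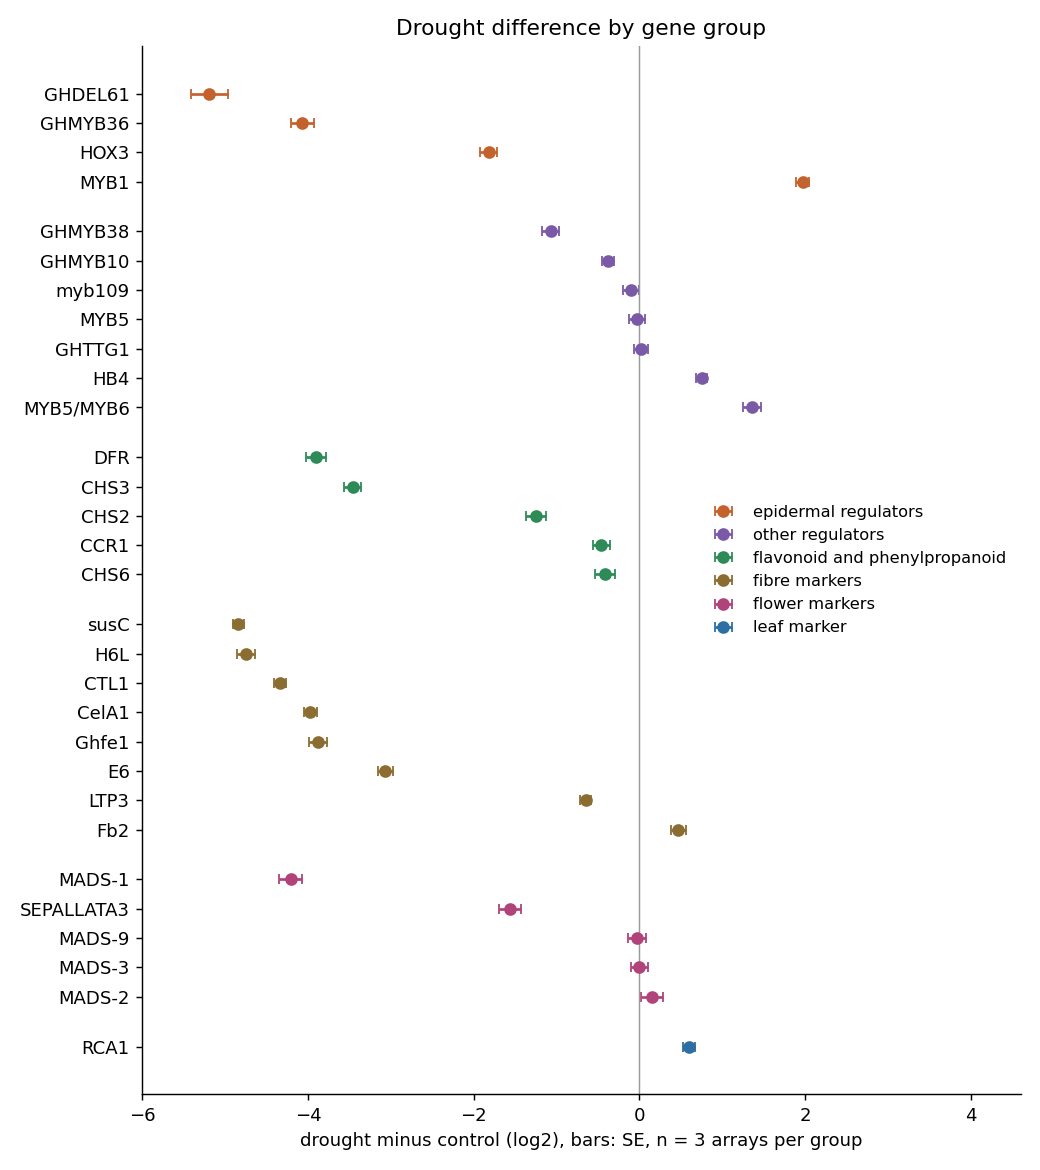
Log2 difference, drought minus control, with its SE (horizontal axis, n = 3 arrays per group) for the 4 epidermal regulators and the genes of each list (vertical axis, coloured by list). GHDEL61 at -5.19 is the lowest gene shown. GHMYB36 at -4.07 lies near genes of several lists, such as MADS-1 at -4.21, CelA1 at -3.97 and DFR at -3.90. The other regulators lie between -1.07 and 1.36.

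For each member, the genes with the nearest values were taken from the other 323 probe sets of genes with an older name, by the root mean square distance of the 6 array values in log2 units. For GHDEL61 these were H6L (distance 0.331, difference -4.75), FLA13, a fasciclin-like arabinogalactan protein (0.331, -4.75), and the expansin EXPA1 (0.351, -4.78). The probe set of EXPA1 lies in a sequence cluster paired with 2 genes, so its value is not shown to be of EXPA1 alone. The smallest distance for GHDEL61 was larger than that for each other member, and its drought replicate 3 lay apart from its other drought arrays. For GHMYB36 they were bnlghi6863 (distance 0.12, difference -4.04), DFR (0.157, -3.90) and CelA1, a cellulose synthase (0.193, -3.97). Both CelA1 probe sets are of antisense design. For HOX3 they were sad1, a stearoyl-ACP desaturase (0.0624, -1.84), the dehydroascorbate reductase gene DHAR1 (0.137, -1.81) and TUA6, an alpha-tubulin gene (0.154, -2.01). The probe set of sad1 lies in a sequence cluster paired with 5 genes, so its value is not shown to be of sad1 alone. For MYB1 they were NAC2, a NAC transcription factor gene (0.1, 1.83), ERF7, of the ethylene response factor family (0.156, 1.86), and GID1-2, a gibberellin receptor gene (0.162, 1.76). With 6 arrays and values that mostly reflect the group difference, a small distance says that 2 genes differed between the groups by a like amount.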

How the data were processed

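The deposited table holds log2 values that the authors made with RMA, per the submitters' processing notes; the sources used here give neither its version nor the way probe sets were centred. The largest absolute probe set median was 5e-07. The log2 scale is taken from RMA's usual output, and a higher value is read as more signal. Of 24132 probe sets, 103 Affymetrix controls were kept out and 24029 tested, 52 reporters among them. By the platform's annotation 697 probe sets have a single gene and 46 have more; the 697 stand for 520 genes, each matched to RefSeq (assembly Gossypium_hirsutum_v2.1, used for names only), and 246 of these have an older name.

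Drought was compared with control with limma 3.58.1 (lmFit, eBayes; R 4.3.3), without a block; p-values are two-sided, with Benjamini-Hochberg adjustment over all tested probe sets and a threshold of 0.05. The fit was tested on simulated data with few changed probe sets and no offset between arrays. That test therefore says nothing about an offset between the groups. Each SE is from this fit, and precision is limited by 3 arrays per group. As no plot is named for a sample, p-values reflect only the spread among these arrays. A list gene with several probe sets was read from 1, by design and suffix (sense first, then plain IDs), and members stayed out of the lists. Named are the members, all other regulators, up to 4 genes of each other list and the 3 nearest genes per member. Members and lists were chosen with earlier results of these data known. Alternatives were 4 normalizations, a replicate block, single arrays left out, other variance models and counting every probe set.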

Additional observations from a re-analysis of the deposited data

How the results depend on the processing

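The differences of MYB1, GHMYB36, GHDEL61 and HOX3 kept their direction under every normalization, with the replicate block and without any 1 array. As the groups did not overlap and centring shifts all genes alike by little, only quantile normalization could have turned these differences. They moved by more than the within-group SD after quantile normalization (2.68, -3.23, -4.19 and -1.52 in that order), with arrays centred on their hybridisation spike-in medians for MYB1 (1.72), GHMYB36 (-4.31) and HOX3 (-2.07), and with arrays centred on their median for MYB1 (1.87). Without 1 array the differences ran from 1.91 to 2.03, from -4.17 to -3.91, from -5.36 to -4.89 and from -1.89 to -1.73. The number of tested probe sets called higher was 8485 as deposited and 3989 with spike-in centring; the number called lower was 4895 and 7255. The share of calls that were higher was 63.4% as deposited, 57.7% with reporter centring, 53.1% with median centring, 50.9% after quantile normalization and 35.5% with spike-in centring. With the last, 1 of the 14 marker genes was called higher in place of 2. The cause of these shifts was not tested. Leaving out 1 array gave 11878 to 13092 calls, 7409 to 8275 of them higher and 4465 to 5089 lower. MADS-2 passed without drought replicate 2 (0.30). CHS6 also failed to pass in an ordinary linear model (adjusted p = 0.0912). Same-numbered arrays of the groups correlated by 0.033, 0.045 and 0.074 in their deviations from group means across probe sets, each more than with the other numbers. These correlations are near 0. They are also not independent, as deviations sum to 0 within a group, so they do not show whether the numbers mark a pairing. The replicate block gave 13244 calls against 13380 and changed no list call. Depth of signal over background cannot be read from centred values.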
